A study of Rattus norvegicus with 20 samples.

Results

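The 10 genes described here are chaperones, folding enzymes and regulators of the unfolded protein response in the endoplasmic reticulum (ER): Hspa5, Hsp90b1, Calr, Pdia3, Pdia4, Dnajb9, Herpud1, Xbp1, Atf4 and Ddit3. They were chosen by symbol, as probe sets that the array's annotation assigns to exactly 1 of these symbols. This gave 11 probe sets for 10 genes, of 31099 probe sets and 14217 named genes on the array. Pdia3 had 2 probe sets, and the one with the higher mean over all 20 arrays stands for the gene. All 11 lay above the filter on dim probe sets.

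Tissue came from the central nucleus of the amygdala. The animals were P rats, selectively bred to prefer alcohol. During adolescence 10 of them could drink 15% and 30% ethanol, while the other 10 were given only water. Each rat gave 1 Affymetrix array, and the titles number the animals separately, so the replicates are animals. All animals of both groups belong to the same selected line, which limits the comparison to rats with this preference. The labels give no sex, no age beyond adolescence and no interval between the last access and tissue collection. The values are log2 probe set summaries made by the authors with RMA, and a log2 difference of 1 is a doubling.

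Proteins that enter the secretory pathway fold in the ER with the help of chaperones such as the Hsp70 protein BiP, encoded by Hspa5. When unfolded proteins accumulate, BiP leaves the membrane sensors IRE1, PERK and ATF6. IRE1 splices Xbp1 mRNA, ATF6 is cleaved to an active transcription factor, and PERK phosphorylates eIF2alpha, which favours translation of ATF4 and, downstream of it, expression of the pro-apoptotic factor CHOP (Ddit3). Much of this control is exerted on splicing, cleavage and translation, which a 3' expression array does not read. Neurons that secrete neuropeptides, many of which populate the central amygdala, carry a large folding load.

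The chaperone genes of this response are known for the ER stress response element (ERSE) in their promoters, so the promoter windows that hold one are shown first. The search covered both strands of the 250 bases before the gene start for the 9 genes matched in the promoter table used (RefSeq, GRCr8), which left Pdia3 unsearched. Searched were the ERSE (CCAAT, any 9 bases, then CCACG), the ERSE-II (ATTGG, any 1 base, then CCACG) and the amino acid response element CARE (TTGCATCA). A further search was for the unfolded protein response element UPRE (TGACGTGG), whose last letters, CGTGG, are the reverse complement of the end of an ERSE. Capitals mark the match, and each sequence runs 5′ to 3′ in the direction of its gene.
Hspa5, chr3:38452943-38453015, plus strand: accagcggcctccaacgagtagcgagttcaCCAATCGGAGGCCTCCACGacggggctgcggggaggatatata
Hsp90b1, chr7:23012317-23012499, minus strand: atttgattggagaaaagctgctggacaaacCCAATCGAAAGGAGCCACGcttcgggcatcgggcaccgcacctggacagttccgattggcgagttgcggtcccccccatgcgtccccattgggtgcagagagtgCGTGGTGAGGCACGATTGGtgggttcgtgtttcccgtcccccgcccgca
Calr, chr19:40213117-40213183, plus strand: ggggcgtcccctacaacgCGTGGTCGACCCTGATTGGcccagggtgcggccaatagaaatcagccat
Xbp1, chr14:84604528-84604606, plus strand: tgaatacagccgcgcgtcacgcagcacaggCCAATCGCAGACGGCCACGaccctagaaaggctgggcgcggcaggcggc
Herpud1, chr19:10614791-10614921, minus strand: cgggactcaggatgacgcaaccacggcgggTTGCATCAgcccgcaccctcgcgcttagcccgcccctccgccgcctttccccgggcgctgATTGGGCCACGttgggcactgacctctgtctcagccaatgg

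An ERSE was found in 4 of the 9 promoters, those of Hspa5, Hsp90b1, Calr and Xbp1, against 22 of 33469 promoters in the table (0.0657%). Hsp90b1 held 2 of them, 1 on each strand, and the ERSE of Calr lay on the strand opposite to the gene. The Hspa5 match ended 25 bases before the start. Herpud1 held an ERSE-II, which 14 promoters of the table hold (0.0418%), and a CARE, found in 0.693% of all promoters. The UPRE letters were in 0 of the 9 windows and in 0.520% of all promoters. Among the 9550 promoters of genes above the filter, 15 held an ERSE (0.157%) and 7 an ERSE-II (0.0733%). In these a CARE was found in 0.471% and the UPRE letters in 0.743%. The members are counted in all these shares. A match is a string of letters and was not tested as a binding site here.

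The 20 arrays had medians of 7.92 to 7.97, and their pairwise correlations over all probe sets were 0.977 to 0.997. The 3 arrays that stood apart by mean correlation with the others were water animal 18 (0.984), ethanol animal 5 (0.988) and water animal 15 (0.989). Of the central amygdala marker list, 16 of 17 measured genes lay above the filter, and the list averaged 11.11 ± 0.27 in the ethanol group and 11.03 ± 0.26 in the water group (SD, n = 10 each). Of the striatal list, 9 of 9 lay above it, with means of 10.83 ± 0.36 in the ethanol and 10.67 ± 0.27 in the water group. Both lists include Penk, Ppp1r1b, Drd1 and Drd2, so these means do not tell the nucleus from striatal tissue. The deposition order falls into 3 runs that no label names, with 4 animals per group in the first and the second and 2 per group in the last. Where 1 of the 3 arrays moved a member's difference by over 1.5 times, the value without it is given, and the differences within runs are in the plot of group differences.

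None of the 10 genes differed between ethanol and water animals past the threshold. In limma's fit over 18625 probe sets the smallest Benjamini-Hochberg adjusted p of the 10 main probe sets was 0.314, so 0 were called, against 4 of all probe sets (0.0215%). At an unadjusted p under 0.05, 1 member (Pdia4) passed, beside 2393 probe sets of all (12.8%). The mean was lower in ethanol animals for 9 of the 10 genes (for Xbp1 by a negligible amount) and higher for Atf4. The median difference of the members was -0.05, against 0.02 over all probe sets, of which 42.2% were lower. RNA came from bulk tissue, so fewer cells of a type and less RNA per cell cannot be told apart in any of these values.

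**Figure D1:**
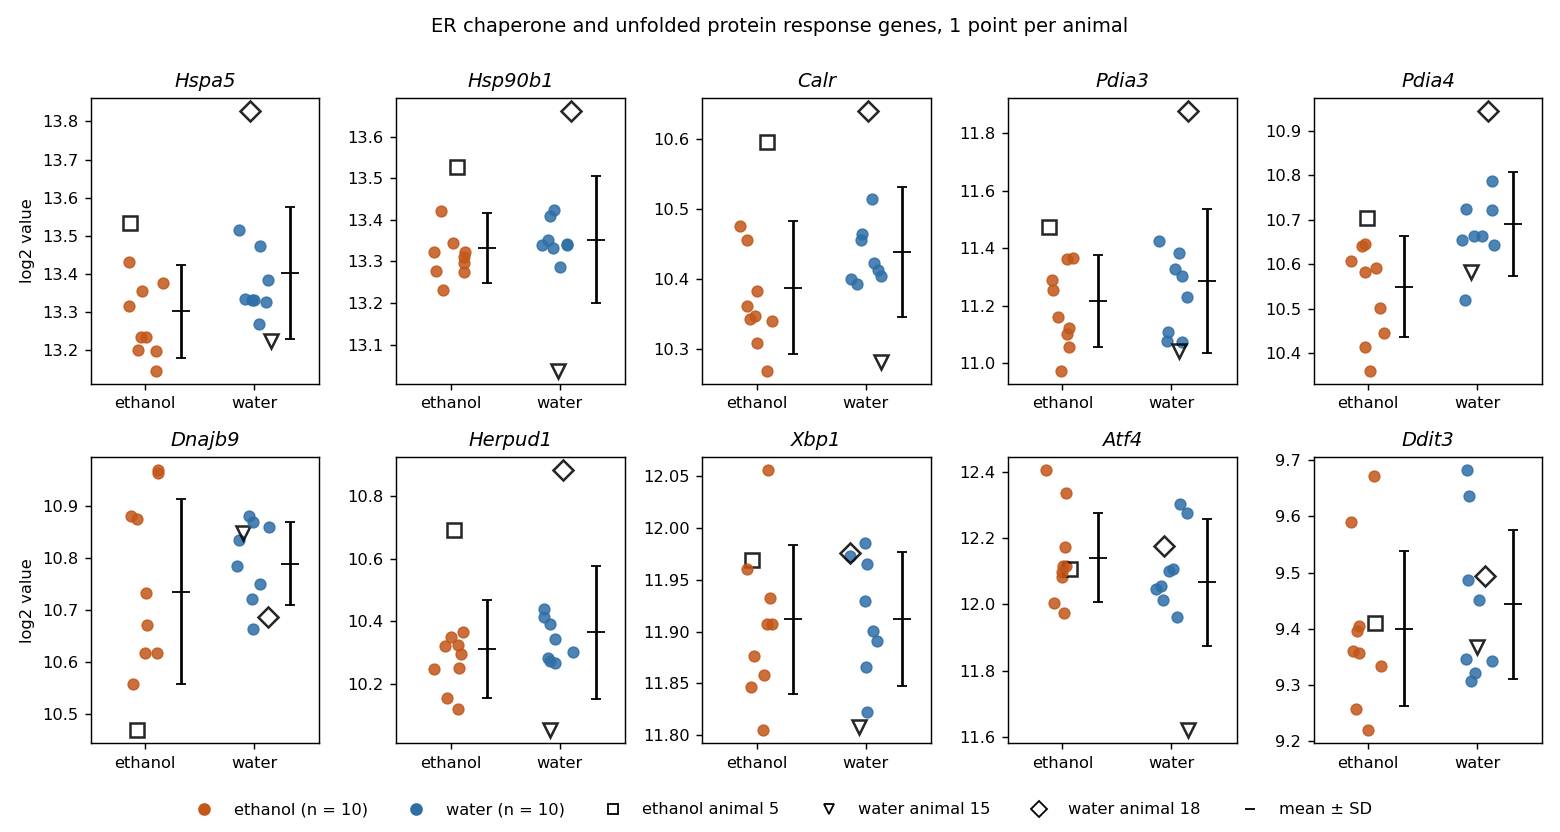
Log2 value of each of the 10 genes in each animal (1 point per animal), with ethanol animals left and water animals right, and the mean ± SD beside each group. Open symbols mark ethanol animal 5 and water animals 15 and 18; the groups overlap in every panel, and water animal 18 is the highest point for Hspa5, Hsp90b1, Calr, Pdia3, Pdia4 and Herpud1.

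Among the chaperones, Hspa5 (1370283_at, chromosome 3) had a lowest, median and highest log2 value of 13.15, 13.27 and 13.53 in ethanol animals, against 13.22, 13.33 and 13.83 in water animals. The groups overlapped, and the mean of the water animals was above 8 of the 10 ethanol values. The difference, ethanol minus water, was -0.10 (SE 0.066, 95% interval -0.24 to 0.037, limma adjusted p = 0.512). It was -0.05 without water animal 18, -0.04 with the meningeal and -0.02 with the choroid marker mean as a covariate. Within the runs it was -0.10, -0.11 and -0.09, while the level itself moved between runs. The run means were 13.19 in ethanol and 13.29 in water animals in the first run, 13.36 in ethanol and 13.47 in water animals in the second, and 13.40 in ethanol and 13.49 in water animals in the last.

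Hsp90b1 (1388331_at, chromosome 7) encodes Grp94, the Hsp90 of the ER lumen, which folds integrins and Toll-like receptors. Ethanol animals had a lowest, median and highest value of 13.23, 13.32 and 13.53, against 13.04, 13.34 and 13.66 in water animals. The water group held both the highest and the lowest array, animals 18 and 15, so that the ethanol values lay wholly inside the water range. The difference was -0.02 (SE 0.056, adjusted p = 0.903). It was 0.01 without water animal 18, -0.06 without water animal 15 and -0.04 without ethanol animal 5.

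Calr (1398750_at, chromosome 19) encodes calreticulin, the calcium-binding lectin that retains glycoproteins until they are folded. Its lowest, median and highest values were 10.27, 10.35 and 10.60 in ethanol animals, against 10.28, 10.42 and 10.64 in water animals. The ranges nearly coincide, and 7 of the 10 ethanol values were under the mean of the water group. The difference was -0.05 (SE 0.045, adjusted p = 0.635), with -0.03 without water animal 18 and -0.0051 with the choroid marker mean as a covariate. Dnajb9 (1387116_at, chromosome 6) encodes ERdj4, a J-domain cochaperone of BiP. In ethanol animals the lowest, median and highest values were 10.47, 10.70 and 10.97, against 10.66, 10.81 and 10.88 in water animals. The ethanol animals spread further on either side, with an SD of 0.18 against 0.080 in water animals. The difference was -0.05 (SE 0.061, adjusted p = 0.721). It was -0.02 without ethanol animal 5, and within runs it was -0.08, -0.16 and 0.22.

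The disulfide isomerase Pdia4 (1370007_at, chromosome 4), also known as ERp72, had the smallest p-value of the 10 genes. Its lowest, median and highest values were 10.36, 10.59 and 10.70 in ethanol animals, against 10.52, 10.66 and 10.94 in water animals. The groups overlapped, and 9 of the 10 ethanol values were under the mean of the water group. The difference was -0.14 (SE 0.052, 95% interval -0.25 to -0.032), a ratio of 0.907, with an unadjusted p of 0.0137 and a limma adjusted p of 0.314. Within the runs it was -0.16, -0.11 and -0.15. Without any 1 animal it lay between -0.16 and -0.11, and it was -0.10 with the meningeal or the choroid marker mean as a covariate. With the choroid mean 0 members had an unadjusted limma p under 0.05.

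Pdia3 encodes ERp57, the isomerase that works on glycoproteins held by calreticulin. Its main probe set (1398788_at, chromosome 3) had a lowest, median and highest value of 10.97, 11.21 and 11.48 in ethanol animals, against 11.04, 11.27 and 11.88 in water animals. Apart from water animal 18, the animals of the groups overlapped almost fully. The difference was -0.07 (SE 0.089, adjusted p = 0.763), and it was -0.0022 without water animal 18. The second probe set of the gene, 1392920_at, had the opposite sign, with means of 8.92 ± 0.13 in the ethanol group and 8.85 ± 0.067 in the water group (SD, n = 10 each; difference 0.07, SE 0.047, adjusted p = 0.507). Neither difference passed the threshold, and over animals centred on their group means these probe sets of the same gene had a correlation of 0.14 (permutation p = 0.496, Spearman rho -0.024, permutation p = 0.923, n = 20).

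Herpud1 (1367741_at, chromosome 19) encodes an ER membrane protein that recruits the ubiquitin ligase machinery of ER-associated degradation (ERAD). Its lowest, median and highest values were 10.12, 10.31 and 10.69 in ethanol animals, against 10.05, 10.32 and 10.88 in water animals. The medians were nearly equal, and the top of each group was a single array, ethanol animal 5 and water animal 18. The difference was -0.05 (SE 0.080, adjusted p = 0.797), and it was 0.0048 without water animal 18, -0.09 without water animal 15 and -0.10 without ethanol animal 5.

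Of the transcription factors, Xbp1 (1371249_at, chromosome 14), the target of IRE1, was the flattest. Its lowest, median and highest values were 11.80, 11.91 and 12.06 in ethanol animals, against 11.81, 11.92 and 11.99 in water animals. The group means differed by -1.73e-06 (SE 0.036, 95% interval -0.075 to 0.075) and did not pass, and without any 1 animal the difference lay between -0.016 and 0.012. The array does not separate the spliced from the unspliced mRNA in this summary, so splicing was not measured.

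Atf4 (1367624_at, chromosome 7), the effector of the PERK arm, had a lowest, median and highest value of 11.97, 12.11 and 12.40 in ethanol animals, against 11.62, 12.08 and 12.30 in water animals. The groups overlapped, and the lowest array of all was water animal 15. The difference was 0.08 (SE 0.072, adjusted p = 0.663), with 8 of 10 ethanol animals above the water mean. It was 0.03 without water animal 15 and 0.17 with the myelin marker mean as a covariate (SE 0.060, limma adjusted p = 0.296). Within runs it was 0.21, -0.09 and 0.14. Ddit3 (1369590_a_at, chromosome 7) encodes CHOP, which ATF4 induces under prolonged stress. For Ddit3 the lowest, median and highest values were 9.22, 9.38 and 9.67 in ethanol animals, against 9.31, 9.41 and 9.68 in water animals. The ranges overlapped almost completely. The difference was -0.04 (SE 0.060, adjusted p = 0.777).

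**Figure D2:**
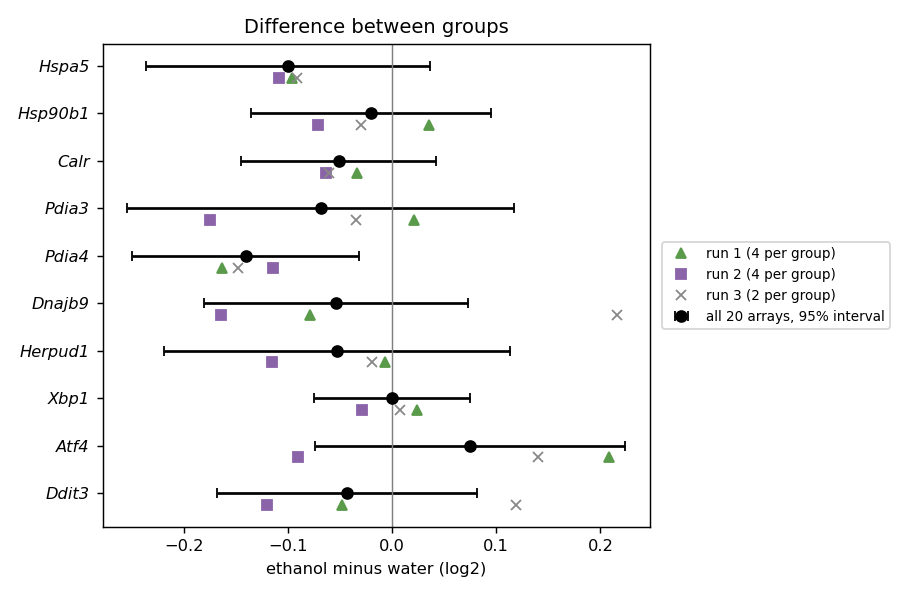
Ethanol minus water difference in log2 value for each gene, as the limma estimate over 20 arrays with its 95% interval (black) and as the difference of means within each of 3 runs in deposition order (triangles, squares and crosses). The interval includes 0 for every gene except Pdia4, and the within-run differences share 1 sign for Hspa5, Calr, Pdia4 and Herpud1.

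None of the further pathway genes that were tested passed either, with 0 of 93 called in either direction. Atf3, Trib3, Nupr1, Creb3l1, Creb3l2, Kdelr3, Edem3 and Uggt1 lay under the filter and were not tested. Some listed genes had no probe set assigned to them alone, among them Ern1, which encodes IRE1. The 93 tested genes comprised 5 stress sensors and their proteases, 24 other ER chaperones and folding enzymes and 15 ERAD genes. The rest were 24 genes of the translocon and ER export and 25 genes of the integrated stress response. The mean was lower in ethanol animals for 2 of the 5 sensors, 17 of the 24 chaperones and 11 of the 15 ERAD genes. It was also lower for 13 of the 24 translocon and export genes and 13 of the 25 stress response genes. The median differences of these lists were 0.03, -0.03, -0.03, -0.01 and -7.22e-04 in that order, beside 0.02 over all probe sets.

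Among the sensors Mbtps1, the site-1 protease that cleaves ATF6, had the smallest p-value, with a log2 difference of 0.06 (SE 0.049, adjusted p = 0.596). For Mbtps2, the site-2 protease, the difference was 0.03. Fkbp2, a prolyl isomerase of the ER lumen, was at -0.12 (SE 0.052, adjusted p = 0.352), and Creld1 at 0.11. Edem1, a lectin that routes misfolded glycoproteins to ERAD, was at -0.12 (SE 0.064, adjusted p = 0.418), and the ubiquitin-conjugating enzyme Ube2g2 at -0.09. Sec63, a translocon partner of BiP, and Sec24d, a cargo adaptor of COPII vesicles, were both at -0.18 (adjusted p = 0.328 and 0.320). The ATF4 branch gave values on opposite sides of 0. Atf5, a transcription factor related to ATF4, averaged 9.24 ± 0.13 in the ethanol group and 9.43 ± 0.15 in the water group (SD, n = 10 each; difference -0.19, SE 0.062, adjusted p = 0.284). Asns, the asparagine synthetase that ATF4 induces, averaged 10.08 ± 0.12 in the ethanol group and 9.93 ± 0.13 in the water group (SD, n = 10 each; difference 0.15, SE 0.057, adjusted p = 0.317).

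Among animals of the same group, several of these genes varied together. The amount that each ethanol animal drank was not part of these fits. In limma's fit of all other probe sets on the group-centred Hspa5 value with the group as a term, 4 of the 9 other members were called, all positive, against 768 of 18624 probe sets in either direction (4.12%) and 2.43% in the positive direction. Pdia3 had the highest correlation with Hspa5 of all 18624 probe sets. Calr was at rank 7, Hsp90b1 at rank 46 and Herpud1 at rank 131. These calls rested on a few arrays. Without water animal 18, 0 members and 0 of all probe sets were called. The r with Hspa5 was then 0.84 for Pdia3 (limma adjusted p = 0.291), 0.76 for Calr, 0.59 for Hsp90b1 and 0.46 for Herpud1 (0.695 for each of the last 3). Without ethanol animal 5, Pdia3 alone was called, with 150 of all probe sets (0.805%), and without all 3 arrays that stood apart 0 members and 8 of all probe sets were (0.043%).

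For Hspa5 and Pdia3, Pearson's r of the group-centred values was 0.92 (permutation p = 1e-05, the smallest that the resamples can give, limma adjusted p = 0.000357) and Spearman's rho 0.83 (permutation p = 3e-05, n = 20). It was 0.90 within the ethanol and 0.93 within the water animals, 0.80 without the 2 animals farthest from the median of Hspa5, and 0.78 (rank 16, limma adjusted p = 0.172) over the 17 arrays without those that stood apart. It differed between runs, at 0.40 in the 8 arrays of the first and 0.96 in the 8 of the second. Over the 17 arrays with the run as a block it was 0.39 (limma adjusted p = 0.997). The resamples were drawn within groups and not within runs, so shifts between runs enter the permutation p-values given here. The second probe set of Pdia3 had an r of 0.04 with Hspa5 (permutation p = 0.869; rho -0.28, permutation p = 0.244), far from the value of the main probe set.

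For Hspa5 and Calr, r was 0.83 (permutation p = 2e-05, limma adjusted p = 0.0166) and rho 0.71 (permutation p = 0.000800). It was 0.76 within the ethanol and 0.92 within the water animals, 0.71 in the first and 0.92 in the second run, 0.65 without the 2 farthest animals and 0.57 over the 17 arrays (rank 385, adjusted p = 0.590). Calr was the member whose relation with Hspa5 varied least between the runs among the 4 called. For Hspa5 and Hsp90b1, r was 0.77 (permutation p = 0.000380, adjusted p = 0.0207), rho 0.49 (permutation p = 0.0332), and r over 17 arrays 0.27.

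For Hspa5 and Herpud1, r was 0.73 (permutation p = 0.00412, adjusted p = 0.0224) but rho was 0.24 (permutation p = 0.313). Without the 2 animals farthest from the median, water animal 18 and ethanol animal 5, r was 0.14, and over the 17 arrays it was -0.15. The relation of Herpud1 with Hspa5 thus rested on those 2 arrays. Pdia4 had an r of 0.59 with Hspa5 and Xbp1 one of 0.51 (adjusted p = 0.0960 and 0.251), Atf4 one of 0.21, Ddit3 one of 0.0029 and Dnajb9 one of -0.27. None of these 5 passed. With cyclic loess normalization, with the run as a block, or with striatal and cortical marker scores as covariates Pdia4 was called as well, and with array quality weights Pdia3 alone was, the 1 probe set of 18624 called there. With these weights the r with Hspa5 was 0.86 for Pdia3, 0.80 for Calr, 0.68 for Hsp90b1 and 0.48 for Herpud1.

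**Figure D3:**
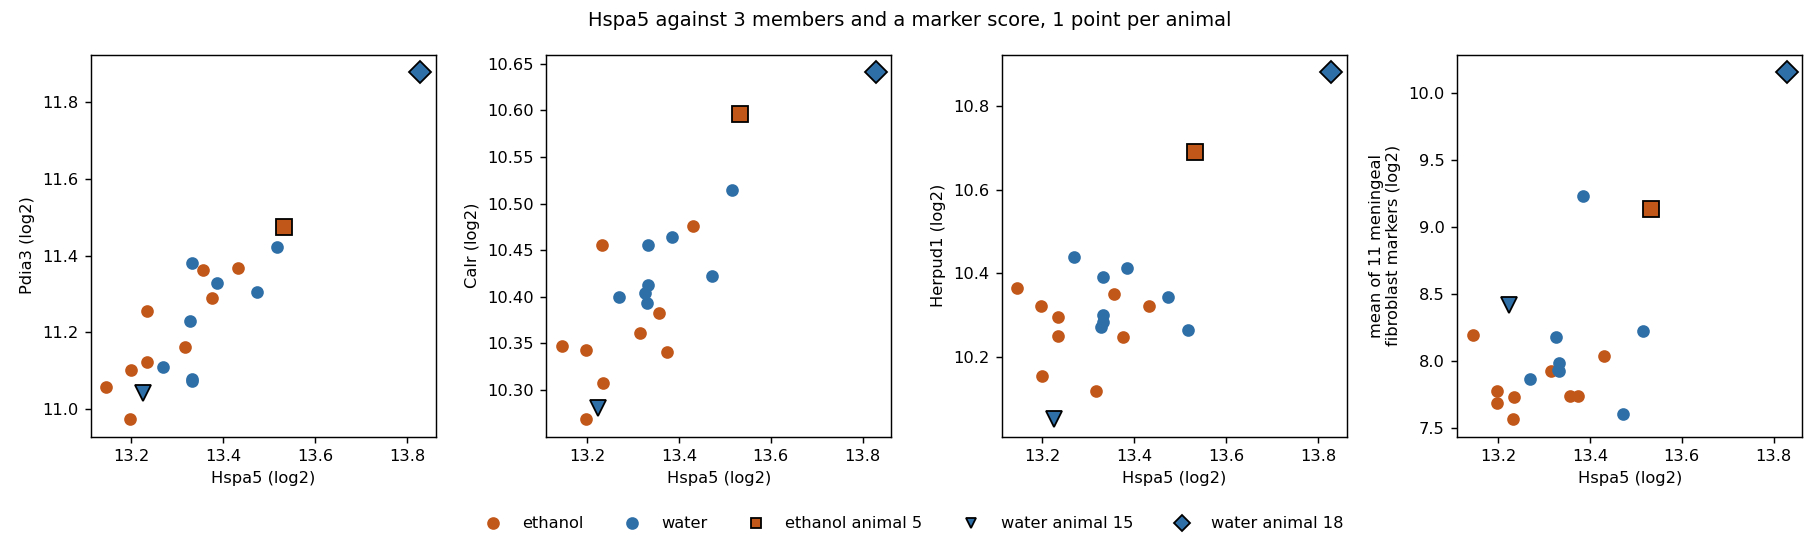
Log2 value of Hspa5 (x axis) against the log2 values of Pdia3, Calr and Herpud1 and against the mean log2 value of 11 meningeal fibroblast markers (y axes), 1 point per animal, ethanol and water in separate colours. Water animal 18 and ethanol animal 5 lie at the upper right in all panels, and over the 17 arrays without ethanol animal 5 and water animals 15 and 18 the r is 0.78 for Pdia3, 0.57 for Calr and -0.15 for Herpud1.

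Over all 45 pairs of the 10 genes r ran from -0.43 to 0.92 with a median of 0.41, and 39 pairs were positive. Over the 17 arrays the median was 0.21 and 36 pairs were positive. The 10 pairs among Hspa5, Hsp90b1, Calr, Pdia3 and Herpud1, a group formed after the values were seen, ran from 0.70 to 0.92 with a median of 0.79 and from -0.15 to 0.78 with a median of 0.24 without the 3 arrays. Within ethanol animals their median was 0.75, and 0.39 without animal 5. Within water animals it was 0.85, and 0.60 without animal 18. It was 0.51 in the first run and 0.93 in the second, which holds both ethanol animal 5 and water animal 18.

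**Figure D4:**
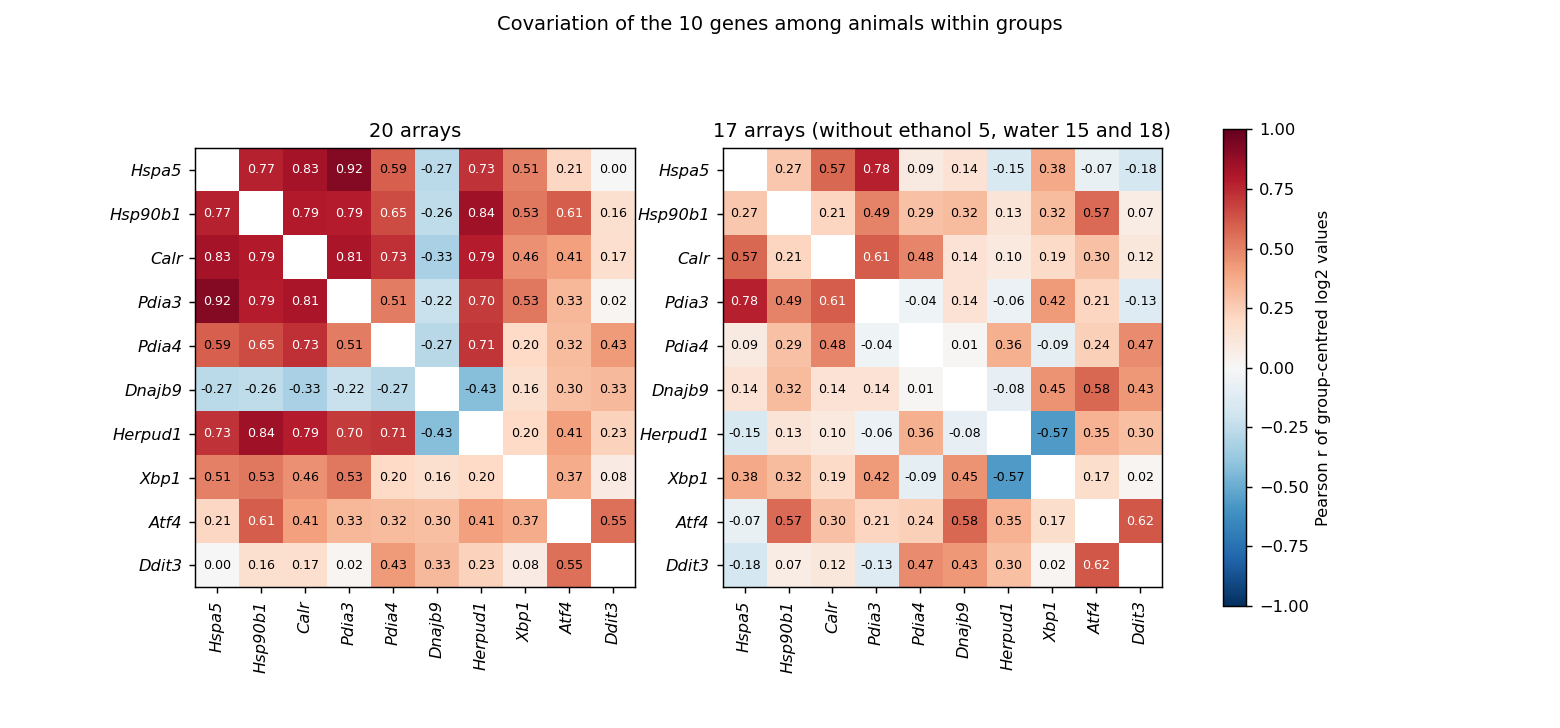
Pearson r of group-centred log2 values for each pair of the 10 genes, over 20 arrays (left) and over 17 arrays without ethanol animal 5 and water animals 15 and 18 (right), on a colour scale from -1 to 1. The block of high values among Hspa5, Hsp90b1, Calr, Pdia3 and Herpud1 has a median of 0.79 on the left and 0.24 on the right, while Ddit3 and Atf4 stand at 0.55 on the left and 0.62 on the right.

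Ddit3 and Atf4, the pair of the PERK branch, are not genes of that block. Atf4 had a higher r with Hsp90b1 of the block than with Ddit3. For Ddit3 and Atf4, r was 0.55 (permutation p = 0.0136) and rho 0.56 (permutation p = 0.0118, n = 20), neither p adjusted over the 45 pairs. The r was 0.39 without the 2 farthest animals and 0.62 over the 17 arrays. It was 0.80 within ethanol and 0.38 within water animals, a difference that was not tested, and it was 0.60 in the first run and -0.06 in the second. In the fit on Atf4 the pair missed the threshold (limma adjusted p = 0.0619), and 12.6% of probe sets had a higher r with Atf4 than Ddit3 had. That fit called 20.3% of all probe sets, and 11.3% in the positive direction. Of the 9 other members it called 1, Hsp90b1 (r = 0.61, limma adjusted p = 0.0370), a share near that of all probe sets. A higher r with Atf4 than that of Hsp90b1 was found for 9.17% of probe sets. The r of Hsp90b1 and Atf4 was 0.57 over the 17 arrays, 0.33 without the 2 farthest animals, 0.18 within ethanol and 0.78 within water animals, and 0.87 in the first and 0.02 in the second run.

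The other members served as the reference gene in turn. Of the other 9 members, 6 were called with Hsp90b1 (17.7% of all probe sets), 5 with Herpud1 (11.7%), 5 with Calr (1.53%) and 4 with Pdia3 (4.22%). The member calls were all positive, and the shares in that direction were 9.18%, 6.32%, 1.19% and 2.11% in this order. Over the 17 arrays the r of Herpud1 was 0.13 with Hsp90b1, 0.10 with Calr and -0.06 with Pdia3. There it was 0.21 for Hsp90b1 and Calr, 0.49 for Hsp90b1 and Pdia3 and 0.61 for Pdia3 and Calr. With Dnajb9 0 members were called (5.57% of all), with Ddit3 0 (0.854%), and with Pdia4 and Xbp1 0 of the members and 0 of all probe sets. Dnajb9 had a negative r with each of the 6 genes Hspa5, Hsp90b1, Calr, Pdia3, Pdia4 and Herpud1, from -0.22 to -0.43, and none of these values passed. Over the 17 arrays its r was 0.14 with Hspa5, 0.32 with Hsp90b1, 0.14 with Calr, 0.14 with Pdia3, 0.0089 with Pdia4 and -0.08 with Herpud1, so 5 of the 6 were no longer negative.

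The arrays at the upper end of these relations, water animal 18 and ethanol animal 5, were also high in markers of choroid plexus and meninges. Water animal 18 had 13.83 for Hspa5, against 13.35 ± 0.092 in the other 9 water animals, and was the highest of its group for Hsp90b1, Calr, Pdia3, Pdia4 and Herpud1 too. Its excess over the mean of the others was 0.66 for Pdia3, 0.58 for Herpud1, 0.34 for Hsp90b1, 0.28 for Pdia4 and 0.22 for Calr. For Xbp1 it was 0.07, for Atf4 0.12 and for Ddit3 0.06, none of them the highest of the group. The mean of 9 measured choroid plexus and ependyma markers was 10.44 in this array against 7.78 in the others, and that of 11 meningeal fibroblast markers 10.16 against 8.15. Its pan-neuronal mean was the lowest of the 10 water arrays, and its myelin mean (by 0.72) and microglia mean (by 0.18) were the highest. Water animal 16 also had high choroid and meningeal means, 9.39 and 9.23, with Hspa5 at 13.39 and Herpud1 at 10.41, inside the range of the other water animals.

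Ethanol animal 5 was the highest of its group for the same 6 genes, by 0.42 for Herpud1, 0.29 for Pdia3, 0.26 for Hspa5, 0.23 for Calr, 0.22 for Hsp90b1 and 0.17 for Pdia4, and the lowest for Dnajb9. Its choroid mean was 9.98 against 6.86 in the other 9 ethanol animals, and its meningeal mean 9.14 against 7.82. Its striatal mean, 11.28 against 10.78, was also the highest of the group, and its pan-neuronal, astrocyte and microglia means were the lowest. Its myelin mean was -0.18 from that of the others, unlike in water animal 18. Water animal 15 was the lowest of its group for Hspa5, Hsp90b1, Calr, Pdia3, Herpud1, Xbp1 and Atf4, the last by -0.50. Its choroid and meningeal means, 8.43 and 8.42, lay inside the range of the other water animals. Its microglia mean was the lowest of the group and its endothelium and vessel wall mean the highest. Its myelin mean was -0.64 from that of the others.

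Hspa5 had an r of 0.67 with the meningeal mean (permutation p = 0.0102, adjusted p = 0.0732 over 100 relations of 10 genes with 10 marker lists) and 0.64 with the choroid mean (permutation p = 0.00560, adjusted p = 0.0717). The rho values were 0.31 (permutation p = 0.184) and 0.25 (permutation p = 0.309). Without the 2 farthest animals the r values were -0.026 and 0.071. They were -0.80 for both lists in the first run, against 0.89 and 0.82 in the second, so the relation did not hold within both runs. With the meningeal mean as a covariate 0 of the 9 members and 0 of 18624 probe sets were called with Hspa5. With the choroid mean 1 member, Pdia3, and 3 of 18624 probe sets were. The r with Hspa5 in these fits was 0.86 (meningeal) and 0.87 (choroid) for Pdia3, 0.70 and 0.72 for Calr, 0.60 and 0.66 for Hsp90b1, and 0.47 and 0.51 for Herpud1.

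Over the groups, the choroid list, of which 5 of 9 measured genes lay above the filter, averaged 7.17 (6.42 to 9.98) in ethanol and 8.04 (6.69 to 10.44) in water animals, with 9 of 9 genes lower in ethanol. The meningeal list averaged 7.95 (7.57 to 9.14) in ethanol and 8.35 (7.60 to 10.16) in water animals, with 11 of 11 lower. The myelin list averaged 12.09 in ethanol and 12.47 in water animals, with 16 of 16 lower. The pan-neuronal list averaged 11.94 in ethanol and 11.85 in water animals, with 12 of 13 higher. Within the runs the difference was -0.84, -0.92 and -0.82 for the choroid list, -0.24, -0.74 and -0.02 for the meningeal list, and 0.16, 0.00050 and 0.15 for the pan-neuronal list. That of the myelin list was -0.37 and -0.79 in the first and second run but 0.38 in the last. With the meningeal or the choroid mean as a covariate, the differences of Hsp90b1, Pdia3 and Herpud1 became positive, at 0.02 to 0.05, and none was called. With the myelin mean as a covariate the difference was -0.06 for Hspa5, 0.03 for Hsp90b1, -0.03 for Calr and -0.0084 for Pdia3. It was 0.02 for Dnajb9, -0.0026 for Herpud1, 0.0015 for Ddit3, 0.02 for Xbp1 and -0.12 for Pdia4. For Atf4 it was 0.17, against 0.08 without the covariate. In that fit 2 members had an unadjusted limma p under 0.05, and none was called.

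Of the 100 marker relations, 2 passed the adjustment by Pearson's r. Atf4 had an r of 0.68 with the myelin mean (permutation p = 0.000740, adjusted p = 0.0370), rho 0.69 (permutation p = 0.00107, adjusted p = 0.0357), 0.60 without the 2 farthest animals and 0.67 over the 17 arrays, with 0.72 in the first and 0.61 in the second run. Dnajb9 had an r of 0.68 with the pan-neuronal mean (permutation p = 0.000720, adjusted p = 0.0370), rho 0.63 (permutation p = 0.00382, adjusted p = 0.0955), 0.54 without the 2 farthest animals and 0.64 over the 17 arrays, with 0.90 and 0.70 in these runs. Both were positive in each group, at 0.60 in ethanol and 0.78 in water animals for Atf4, and 0.76 in ethanol and 0.59 in water animals for Dnajb9. By rho alone 2 others passed. Atf4 with the microglia mean had a rho of 0.69 (adjusted p = 0.0357; r = 0.68, adjusted p = 0.0657), with an r of 0.75 in the first and -0.07 in the second run. Ddit3 with the mean of cortical and basolateral amygdala excitatory markers had a rho of -0.78 (permutation p = 0.000280, adjusted p = 0.0280; r = -0.66, adjusted p = 0.0657), the smallest adjusted p of all rho values. Its r was -0.63 without the 2 farthest animals and -0.65 over the 17 arrays, -0.48 within ethanol and -0.81 within water animals, and -0.80 in the first and -0.68 in the second run.

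Of the listed pathway genes, 8 were called with Hspa5, all positive, beside 2.43% of all probe sets, and they were named after their values were seen. Of the 24 other chaperones and folding enzymes, 5 were called: Sdf2l1 (r = 0.81), a partner of BiP in the ER lumen, the BiP cochaperone Dnajc3 (0.75), the calcium-binding protein Calu (0.74), Creld2 (0.70) and the prolyl isomerase Fkbp14 (0.70). The others were the ERAD gene Selenos (0.70), the COPII gene Sec23b (0.66) and Ppp1r15b (0.70), a regulator of eIF2alpha dephosphorylation. The limma adjusted p-values ran from 0.0125 to 0.0435, and as for the members 0 were called without water animal 18.

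With the 10 members left out, 10149 genes were ranked by r with Hspa5, and the 10 highest ran from 0.80 to 0.88. They were Ifi35 (0.88), Tex261 (0.86), Pdcd7, the fatty acid desaturase Fads2, the mitochondrial aldehyde dehydrogenase Aldh2, Sdf2l1, Zfp266, the neuronal adhesion molecule Cntn1, Ccdc47 and Serpinh1, the collagen chaperone of the ER (0.80). Over the 17 arrays their r lay between 0.09 (Serpinh1) and 0.65 (Ifi35). The 5 genes most like Atf4 were Serpine2 (0.93), Tank, Arl6ip1, Snx2 and Rab10 (0.90), and these had 0.84 to 0.87 over the 17 arrays. For Ddit3 they were Cisd3 (0.83), Ciapin1, Cndp2, Slco2b1 and Brcc3-ps7 (0.80), with 0.81 to 0.95 over the 17 arrays. For Xbp1 they were Pex19 (0.79), Mon2, Golph3, Adgrl3 and Atp6ap1 (0.72), none of them called. For Herpud1 they were the polyamine enzyme Odc1 (0.93), Akr7a2, Rnaset2, the metalloproteinase inhibitor Timp2 and Adipor1 (0.91), with 0.45 to 0.68 over the 17 arrays.

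**Figure D5:**
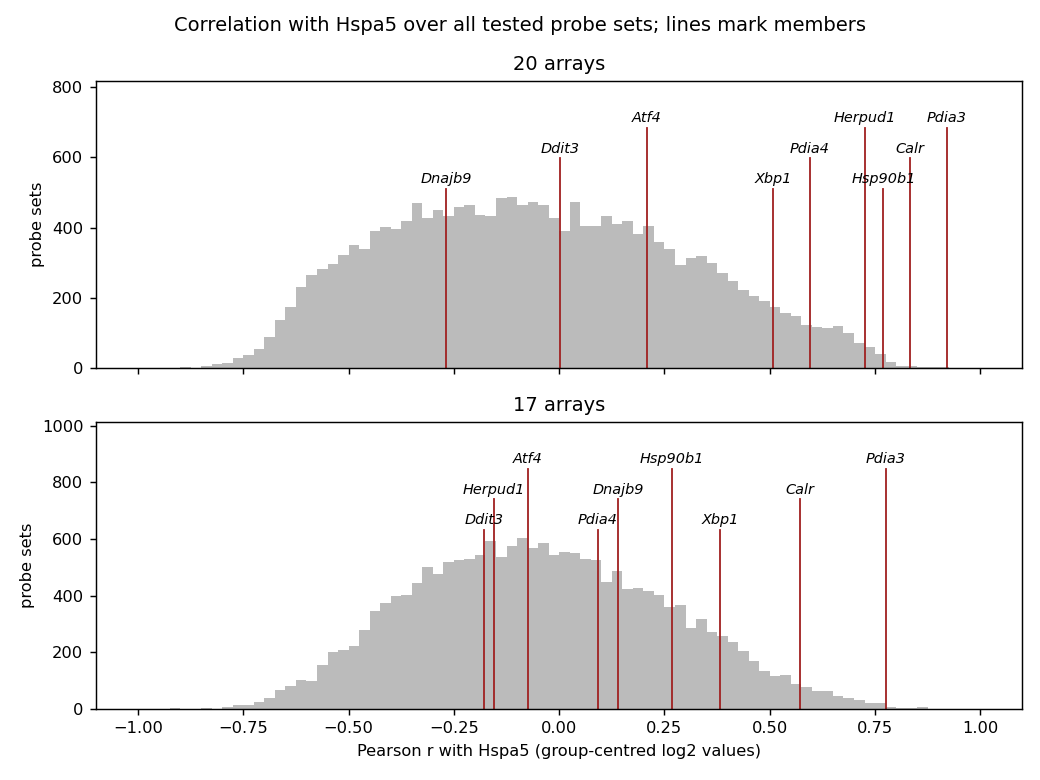
Number of probe sets (y axis) by Pearson r with Hspa5 of group-centred log2 values (x axis), over 20 arrays (top) and 17 arrays (bottom), with vertical lines at the 9 other members. Pdia3 is at 0.92 above and 0.78 below, and Herpud1 at 0.73 above and -0.15 below.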

How the data were processed

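Total RNA from the central nucleus of the amygdala of 20 P rats was isolated with Trizol and RNeasy columns, per the labels' protocols, and turned into biotinylated cRNA with the 3' IVT Express kit. The authors deposited log2 probe set summaries, made with RMA per the submitters' processing notes; neither its version nor a filter or test of the authors is recorded there. Base 2 was inferred from the range of the values (3.82 to 16.16). Precision is limited by the number of arrays.

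Gene names came from the platform annotation (20826 probe sets with 1 symbol, 436 with several, 9780 with none, beside 57 controls). The filter kept the 18625 probe sets whose mean exceeded log2 7.14, the 40th percentile without controls. Ethanol minus water and the fits on the group-centred value of each member used lmFit and eBayes of limma 3.58.1 under R 4.3.3. Tests were two-sided, p-values were adjusted by Benjamini-Hochberg over every probe set kept, and the threshold was 0.05. The member's own probe sets were left out of its fit. Correlations use values centred on group means, with 100000 resamples within groups (two-sided permutation tests, Python 3.11.15, scipy 1.17.1). The 3 runs in deposition order were treated as candidate batches that no label names. The fits were tested on simulated data. Promoters were those of RefSeq (GRCr8).

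All 10 members were named; from each pathway list, calls or otherwise the 2 smallest p-values; and the genes most like Hspa5 (10) and like Atf4, Ddit3, Xbp1 and Herpud1 (5 each). Members and lists were chosen with earlier results of these data known, and the meningeal and choroid covariates after seeing the data. Alternatives were the filter, the normalization, array weights, eBayes settings, the run as a block, marker scores as covariates, the other Pdia3 probe set, and leaving out single animals or the 3 arrays that stood apart.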

Additional observations from a re-analysis of the deposited data

Results flagged for a closer look

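Each of the 10 members, the second Pdia3 probe set and the 10 pathway genes named by p-value was checked for an array far from the others, separately in ethanol and water animals. In 5 of these 42 groups of values the gap of the most extreme array, over the group's range, was above Dixon's 95% critical value. Chance exceeds it in about 5% of independent groups. These groups are not independent, because the same animals enter for each gene, and water animal 18 was flagged for Hspa5, Pdia3 and Herpud1. Hspa5 was at 13.83 in water animal 18, with the next water animal at 13.52. Pdia3 was at 11.88 in the same animal, with the next at 11.42, and Herpud1 at 10.88, with the next at 10.44. Herpud1 was at 10.69 in ethanol animal 5, with the next ethanol animal at 10.36. Atf4 was at 11.62 in water animal 15, the lowest of its group, with the next at 11.96. Water animal 18 and ethanol animal 5 also had the highest choroid plexus and meningeal marker means of their groups. Water animal 16 had a choroid mean of 9.39 and a meningeal mean of 9.23 with Hspa5 at 13.39. The part of these in the values was not tested beyond the covariate fits.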

How the results depend on the processing

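No paired analysis was possible because no animal number occurs in both groups. No member differed between ethanol and water past the threshold under any alternative run. Of all probe sets, 4 were called in that comparison; with the 60th percentile filter 2 were, with array quality weights 23, with the myelin score 0, with the striatal and cortical scores 1, with the meningeal score 1, with the choroid score 1, and without single animals 1 to 8. With Hspa5, 768 probe sets were called; the numbers were 505 (60th percentile filter), 494 (arrays centred on their median), 1 (array quality weights), 353 (myelin), 8 (without 3 arrays), 0 (meningeal), 3 (choroid) and 0 to 1286 (without single animals). The members called with Hspa5 were 4, and 1 with array weights, 0 without the 3 arrays, 0 with the meningeal and 1 with the choroid score, and 0 to 4 without single animals. Differences that changed sign were small. Xbp1 was at 0.0062 (median centring), 0.017 (myelin), 0.00061 (striatal and cortical), 0.011 (meningeal) and 0.0079 (choroid), and between -0.016 and 0.012 without single animals. With the myelin score Ddit3 was at 0.0015, Dnajb9 at 0.015 and Hsp90b1 at 0.035. Herpud1 was at 0.032 (meningeal) and 0.047 (choroid), and between -0.095 and 0.0048 without single animals; Hsp90b1 was at 0.029, 0.030 and between -0.055 and 0.014; Pdia3 was at 0.020 and 0.033, and at 0.073 in its other probe set. The r with Hspa5 changed sign for Ddit3, at -0.056 (array weights), -0.13 (myelin), -0.18 (without 3 arrays), -0.12 (meningeal) and between -0.12 and 0.10 without single animals. It also did for Atf4, at -0.0078 (myelin) and -0.075 (without 3 arrays), and without the 3 arrays for Herpud1 at -0.15 and Dnajb9 at 0.14. Apart from the arrays left out, the cause was not tested. With no filter 31041 probe sets were tested, of which 3 were called for ethanol against water and 955 with Hspa5.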

Other observations

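The ER stress response elements searched in the member promoters also occur before other genes measured here. Among tested genes that are not members, 16 had an ERSE or ERSE-II in the 250 bases before the start. Their median r with Hspa5 was -0.069, against -0.029 over 8487 tested genes with a promoter in the table. Of these 16 genes 2 were called with Hspa5 (12.5%), Dnajc3 (r = 0.75) and Creld2 (r = 0.70), against 3.06% of the 8487. Over the 17 arrays the r was 0.39 for Dnajc3 and 0.24 for Creld2 (limma adjusted p = 0.656 and 0.803), and without water animal 18 no probe set was called with Hspa5. The chaperones Hyou1 (r = -0.31) and Canx (r = 0.13), which also hold such a match, were not called. The median ethanol minus water difference was 0.01 in the 16 genes and 0.01 in the 8487. Over the 17 arrays the median r with Hspa5 was -0.23 in the 16 genes and -0.11 in the 8487.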
